A study of Homo sapiens with 24 samples.

Results

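The integrin and laminin subunit genes were taken as every gene of the deposited gene table whose symbol names an integrin α or β subunit (ITGA, ITGB) or a laminin α, β or γ chain (LAMA, LAMB, LAMC). They were 38 of 19932 genes, 26 integrin and 12 laminin subunits. HCC827 is a cell line from a human lung adenocarcinoma that carries an active mutant EGFR, and osimertinib (Osi) is a kinase inhibitor aimed at that mutant. Directional libraries depleted of ribosomal RNA were sequenced from 6 groups of 3 libraries: Parental OC, Parental EV, DTP OC, DTP EV, Resistant OC and Resistant EV, where DTP stands for drug-tolerant persister cells and Resistant for cells with acquired resistance. EV libraries carry an empty vector and are labelled WT, and OC libraries overexpress cATF6, a circular RNA of the ATF6 gene. All are HCC827 cells, and the labels give neither whether drug was present at harvest, nor whether replicates were separate cultures, nor whether a state is 1 clone. Each p-value therefore measures the spread between libraries, which may be technical. A further 3 Osi and 3 DMSO libraries, treated for 10 days, were used for circular RNAs alone.

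Totals ran from 30075330 to 45068508 counts per library, and values below are scaled counts (scaled for library size) unless said otherwise. The 18 libraries held ATF6 counts in the direction of their labels: 17791 to 18380 in Parental OC against 2884 to 2999 in Parental EV, 18751 to 22117 in DTP OC against 3288 to 3315 in DTP EV, and 31354 to 33190 in Resistant OC against 1931 to 2320 in Resistant EV. All 8 epithelial marker genes had counts in every group. DTP EV replicate 1 stood apart from its group: over all tested genes its log2 values correlated at 0.973 and 0.974 with DTP EV replicates 3 and 2, but at 0.980 to 0.983 with the 3 DTP OC libraries, while its ATF6 count was that of an EV library. Most values that rest on DTP EV are therefore followed by the value without it. The Resistant libraries carry library names of another series than the Parental and DTP libraries, and wherever Resistant cells are compared with the others, cell state cannot be told apart from library series. EGFR itself had 26008 to 26485 in Resistant EV and 198061 to 205324 in Parental EV.

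Integrins are receptors of 1 α and 1 β subunit that hold cells to the extracellular matrix and pass signals across the membrane. The pair decides the ligand: α3β1, α6β1 and α6β4 bind laminins, α2β1 binds collagen, α5β1 binds fibronectin, and αV with β1, β3, β5, β6 or β8 binds ligands with an RGD motif, among them the latent form of TGF-β. Laminins are trimers of an α, a β and a γ chain that form the base of the basement membrane. Laminin-332, which holds the LAMA3 and LAMB3 chains, anchors epithelia through α6β4 in hemidesmosomes, and laminin-511 (LAMA5, LAMB1, LAMC1) is the other main laminin of lung epithelium.

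Upstream sequence was in the RefSeq table (build GRCh38.p14) for 26 of the 38 genes, and 3 stretches are shown as examples of members that hold the AP-1 or the TEAD motif. The 250 bases before each listed start were searched on both strands for the AP-1 motif TGANTCA, the TEAD motif GGAATG and the GC box GGGCGG, motifs chosen with results of these data known. The AP-1 motif lay before 2 of the 26 genes, LAMA3 and LAMB3 (chains of laminin-332), and before 8.06% of the 27305 genes in the table. LAMA3 had it 125 and 69 bases before its listed start, and LAMB3 67 bases before 1 of its 3 listed starts. The TEAD motif lay before 4 of the 26 genes, ITGA10, ITGA5, ITGB1 and LAMA2, and before 14.3% of all genes. The GC box lay before 14 of the 26 genes and 46.2% of all genes. A match is a run of letters and no evidence of binding. The motifs marked below precede a listed start but lie inside the gene as annotated on GRCh38. The annotated genes span chr18:23689443-23956222 (LAMA3), chr1:209614870-209652466 (LAMB3) and chr12:54395261-54419460 (ITGA5). Whether these starts are used in HCC827 cells was not tested. In the lines below, 5′ to 3′ on the strand of the gene, capitals mark the AP-1 motif in LAMA3 (chr18:23872770-23873019, plus strand) and LAMB3 (chr1:209651375-209651624, minus strand) and the TEAD motif, 82 bases before the start, in ITGA5 (chr12:54419267-54419516, minus strand).
LAMA3: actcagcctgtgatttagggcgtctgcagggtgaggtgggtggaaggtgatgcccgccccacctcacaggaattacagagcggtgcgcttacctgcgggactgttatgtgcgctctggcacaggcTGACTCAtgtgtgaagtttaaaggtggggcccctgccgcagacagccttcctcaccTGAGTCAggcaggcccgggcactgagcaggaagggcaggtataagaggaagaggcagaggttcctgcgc
LAMB3: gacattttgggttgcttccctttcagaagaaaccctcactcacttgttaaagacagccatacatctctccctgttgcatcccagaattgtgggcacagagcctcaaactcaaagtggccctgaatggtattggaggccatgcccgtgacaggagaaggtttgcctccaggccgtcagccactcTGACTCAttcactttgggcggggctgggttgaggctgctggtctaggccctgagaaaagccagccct
ITGA5: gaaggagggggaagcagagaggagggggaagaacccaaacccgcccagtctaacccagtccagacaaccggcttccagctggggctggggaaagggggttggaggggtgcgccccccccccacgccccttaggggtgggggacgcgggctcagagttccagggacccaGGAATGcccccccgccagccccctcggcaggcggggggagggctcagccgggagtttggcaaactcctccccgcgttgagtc

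Of the 38 genes, 35 had at least 10 counts in at least 3 libraries and were tested. ITGA8 was at 0 in every library, and ITGA4 and ITGAD reached at most 8 and 6 counts. To set genes side by side, counts were divided by gene length, as the bases in any annotated exon, and given as a share of a family within each library. Where the transcripts present are shorter than this length, a gene's share is too low. The listed LAMA3 start, for example, lies inside the gene. Which transcripts were present was not tested. In Parental EV the integrin α genes were led by ITGA3 (43.5 to 44.8% of length-scaled α counts), followed by ITGAV (17.7 to 19.1%), ITGA6 (14.1 to 14.4%), ITGA5 (12.1 to 12.2%) and ITGA2 (9.03 to 9.65%). Among β genes ITGB1, the partner shared by most α subunits, made up 75.5 to 76.0%, ITGB6 12.6 to 12.9%, ITGB4 5.22 to 5.51% and ITGB5 3.34 to 3.80%. None of these neighbouring ranges overlapped. Among the laminins, LAMA5 (73.7 to 74.4%) and LAMA3 (25.1 to 25.8%) made up nearly all α chain counts and LAMB3 (67.7 to 68.6%) led the β chains. The leading genes were thus ITGA3 and ITGB1 of α3β1, ITGAV and ITGB6 of αVβ6, and chains of laminin-332 and laminin-511. All members together took 0.760 to 0.778% of the counts in Parental EV libraries, 0.725 to 0.756% in DTP EV and 0.329 to 0.343% in Resistant EV.

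**Figure D1:**
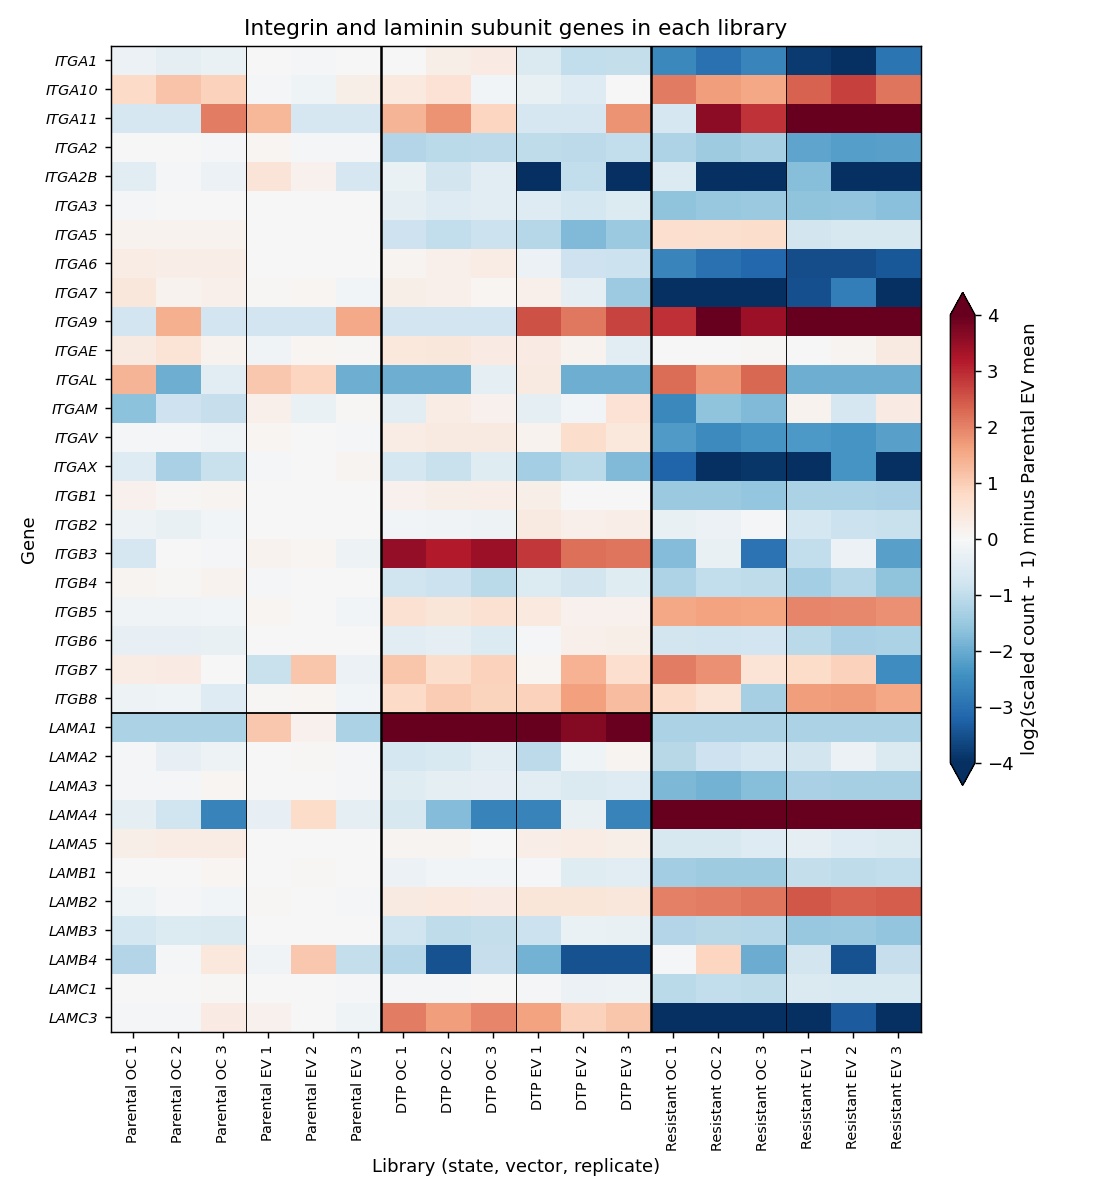
Of the 35 tested genes, 34 (rows) in each of the 18 libraries (columns, grouped by state with OC left of EV), as log2(scaled count + 1) minus the mean of the 3 Parental EV libraries; colours stop at 4 units. The Resistant columns are blue for most integrin and laminin genes and red for LAMB2, ITGB5, ITGA10 and LAMA4, and DTP EV 1 looks more like the DTP OC columns in LAMB3.

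In persister cells with the empty vector ITGA5, ITGA2, ITGA6, ITGA3 and ITGB4 were lower, and ITGAV with its β partners ITGB3, ITGB5 and ITGB8 was higher. Of the 35 tested genes, 9 were higher and 12 lower in DTP EV than in Parental EV (limma, adjusted p under 0.05), where 56.9% of all tested genes passed (28.7% higher and 28.2% lower). The median log2 change was -0.17 over the members and 0 over all genes. Without DTP EV 1 the counts were 11 higher and 11 lower. Of the 21 called members, 20 had no overlap between the groups' libraries, where 54.5% of all tested genes were called and had none.

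The fibronectin receptor subunit ITGA5 had 3070.0, 1999 and 2415 in DTP EV, against 6835, 6755 and 6668 in Parental EV. Every DTP EV library lay below every Parental EV library, and the log2 change was -1.46 ± 0.10 (SE, adjusted p = 2.79e-09) and -1.62 without DTP EV 1. The collagen receptor subunit ITGA2 had 2647, 2632 and 2718 in DTP EV and 5684, 5275 and 5272 in Parental EV, a log2 change of -1.02 ± 0.05 (adjusted p = 5.25e-11) that was -1.01 without DTP EV 1. ITGA1, another collagen receptor subunit, had 262 to 347.5 in DTP EV and 502 to 528 in Parental EV. It missed the threshold with all libraries and passed it without DTP EV 1 (log2 change -0.97, adjusted p = 0.0482). The laminin receptor subunits fell less. ITGA6, which pairs with β1 or β4, had 5816, 3872 and 3774 in DTP EV and 6844, 6930.1 and 6702 in Parental EV (log2 change -0.63 ± 0.13, adjusted p = 0.000688, and -0.83 without DTP EV 1). ITGA3 fell by 0.59 on the log2 scale and by 0.62 without DTP EV 1, and ITGB4, the hemidesmosome β subunit, by 0.59 and 0.62. ITGB1 did not pass the test (log2 change 0.09, adjusted p = 0.209, and 0.01 without DTP EV 1).

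The αV subunit gene ITGAV had 12287, 18259 and 14849.8 in DTP EV and 11666, 11326.5 and 10455 in Parental EV. DTP EV 1 was the lowest of its group but still above the highest Parental EV library, and the log2 change was 0.42 ± 0.10 (adjusted p = 0.0023) and 0.57 without it. Of its β partners, ITGB8 had 1390.0, 2302 and 1733 in DTP EV and 761, 769.8 and 678 in Parental EV (log2 change 1.27 ± 0.36, adjusted p = 0.0064, and 1.44 without DTP EV 1). ITGB3 had 302, 195 and 186 in DTP EV and 45.6, 43.8 and 36.3 in Parental EV (2.39 ± 0.53, adjusted p = 0.00102, and 2.17 without DTP EV 1). ITGB5 rose by 0.24 and by 0.17 without DTP EV 1. ITGB6, the epithelial partner, missed the threshold with all libraries (log2 change 0.12, adjusted p = 0.19) and passed it without DTP EV 1 (0.22, adjusted p = 0.00375). In platelets ITGB3 is also the partner of ITGA2B, which was lower, with 0.0, 8.35 and 0.0 in DTP EV and 25.3, 19.8 and 10.5 in Parental EV, a call that did not hold without DTP EV 1 (adjusted p = 0.0513) and also not without DTP EV 3 (0.0577). Of 6 platelet and megakaryocyte markers, 4 had counts in DTP EV, with sums of 198 to 224, and 3 in Parental EV, with sums of 85.9 to 111, and PF4 and GP9 were at 0 in both. Their part in these 2 genes was not tested.

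The laminin chains split in DTP cells. LAMA3 and LAMB3 of laminin-332 fell, LAMA3 with 6769 to 7594.5 in DTP EV and 9792 to 10307 in Parental EV (log2 change -0.50 ± 0.06, adjusted p = 1.29e-06, and -0.54 without DTP EV 1). LAMB3 had 13807, 21003.5 and 20366 in DTP EV and 25458, 25213 and 24768 in Parental EV (-0.48 ± 0.11, adjusted p = 0.00131). DTP EV 1 was far below the other DTP EV libraries, and without it the LAMB3 change was -0.28 (adjusted p = 0.00025). Of laminin-511, LAMB1 (log2 change -0.33, and -0.46 without DTP EV 1) and LAMC1 (-0.17 and -0.22) fell, and LAMA5 rose, with 33909 to 34874 in DTP EV and 28284 to 28735 in Parental EV (0.27 ± 0.05, adjusted p = 0.000299, and 0.27 without DTP EV 1). With quantile normalization LAMC1 did not pass (-0.06, adjusted p = 0.257). LAMB2, the β chain of muscle and kidney basement membranes, had 3515, 3499 and 3414 in DTP EV and 2614, 2542 and 2380.1 in Parental EV (0.47 ± 0.05, adjusted p = 4.04e-07, and 0.46 without DTP EV 1). LAMA1, an α chain of early development, had 64.5, 29.2 and 36.0 in DTP EV and 4.05, 1.72 and 0.0 in Parental EV, so it passed the test at a low level, also without DTP EV 1 (adjusted p = 3.02e-05). The remaining called genes were low in all libraries: ITGA9 had 6.26 to 10.1 in DTP EV and 0.0 to 3.82 in Parental EV, LAMA4 0.0 to 4.17 in DTP EV and 3.82 to 9.45 in Parental EV, and LAMB4 0.0 to 1.99 in DTP EV and 4.77 to 22.3 in Parental EV. The LAMA4 call was lost without DTP EV 1 or 3 or Parental EV 2, and the LAMB4 call without Parental EV 2 (adjusted p = 0.0603). Of 8 fibroblast markers 7 had counts in DTP EV (THY1 at 0), with sums of 1371 to 1511, and 6 in Parental EV (PDGFRA and THY1 at 0), with sums of 533 to 570.2. COL1A1 alone averaged 1244 of the DTP EV sum and 541 of the Parental EV sum. The part of fibroblast markers in these results was not tested. ITGB2, the leukocyte β subunit, rose by 0.27 and by 0.23 without DTP EV 1. The sums of 10 leukocyte markers were 13547 to 22311 in DTP EV (7 with counts, and CD3E, CD3D and MS4A1 at 0). In Parental EV they were 24058 to 25055 (7 with counts, and PTPRC, CD3E and MS4A1 at 0). LCP1 led both sums, averaging 17552 in DTP EV and 18712 in Parental EV.

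The same comparison in cATF6-overexpressing cells shares no library with the one above. Of the 35 genes, 8 were higher and 7 lower in DTP OC than in Parental OC, where 53.2% of all genes passed (28% higher and 25.2% lower). In both arms 12 genes were called in the same direction, 57.1% of the calls in EV cells and 80% of those in OC cells. Over all tested genes these shares were 73.5% and 78.6%. Among the 12 were ITGA5 (log2 change -1.03 ± 0.10 in OC cells), ITGA2 (-1.08), ITGB4 (-1.01), ITGB3 (3.61), ITGAV (0.43) and LAMB2 (0.48). ITGA6 passed in EV cells and not in OC cells, with 7856 ± 502 in DTP OC and 8236 ± 97 in Parental OC (SD, n = 3 each, log2 change -0.07, adjusted p = 0.693). The difference between the arms in ITGA6 was 0.56 ± 0.19 (adjusted p = 0.0724), and 0.76 (adjusted p = 0.000777) without DTP EV 1. LAMB1, LAMC1, ITGB2, ITGA2B, ITGA9, LAMA4 and LAMB4 were also called in the EV arm and not in the OC arm. LAMA5 was called in opposite directions: it had 28218 to 31045 in DTP OC and 33466 to 35228 in Parental OC, a log2 change of -0.20 ± 0.05 (adjusted p = 0.00392) that quantile normalization moved to -0.05 (adjusted p = 0.496). LAMC3, a γ chain, had 414 to 546.5 in DTP OC and 124 to 164 in Parental OC, with no overlap, but its call (1.82 ± 0.74, adjusted p = 0.0491) was lost in 6 of 6 fits without a library of either group. The spread behind that SE was shared with the Resistant libraries, where LAMC3 had 0.0 to 12.2. In EV cells LAMC3 was not called, though 249 to 399 in DTP EV did not overlap 116 to 148 in Parental EV. The LAMB3 and ITGAM calls in OC cells were each lost without 1 of several libraries, for example LAMB3 (-0.31) without DTP OC 2 (-0.28, adjusted p = 0.0731).

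**Figure D2:**
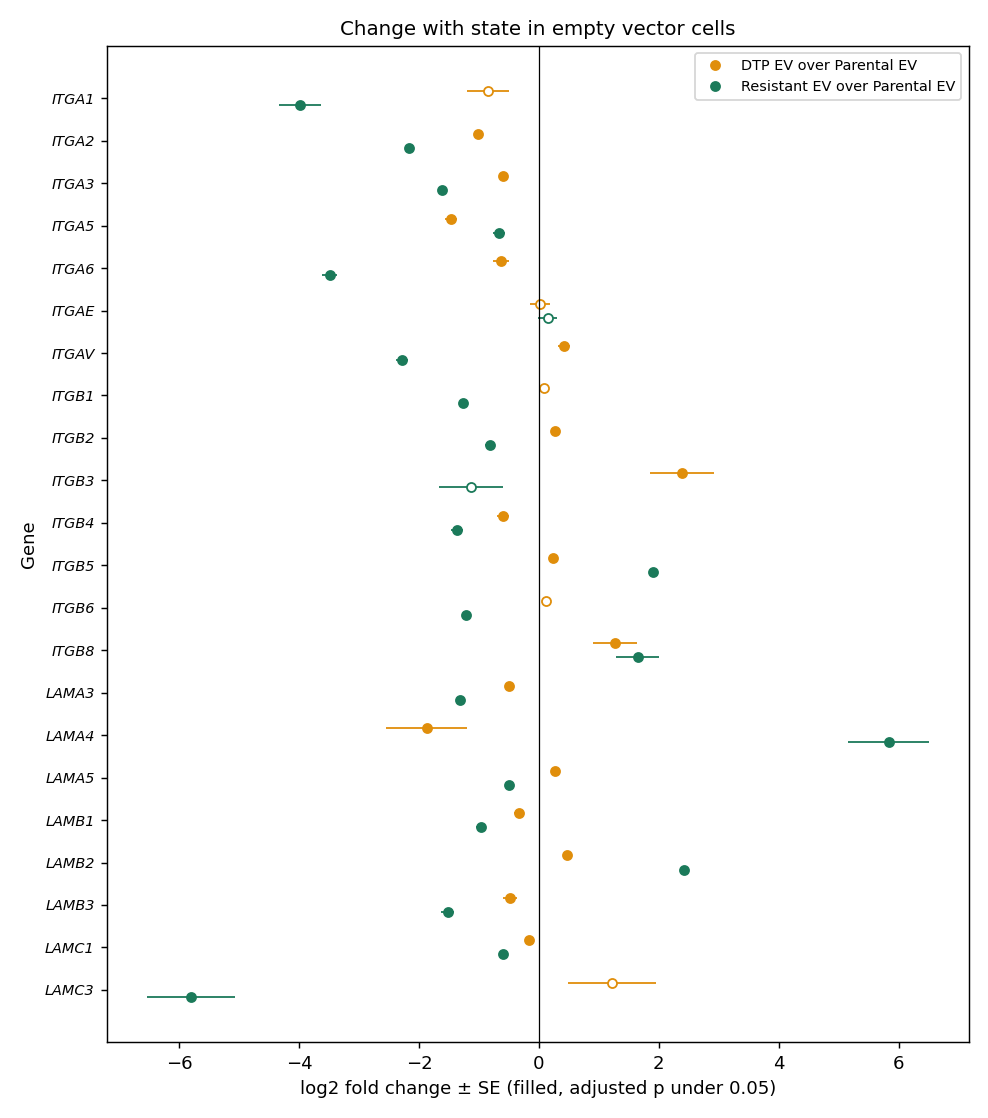
Log2 fold change with its SE (horizontal axis) of 22 members with a mean of at least 100 scaled counts, for DTP EV over Parental EV and Resistant EV over Parental EV; filled points passed the adjusted p of 0.05. ITGA6 and ITGAV lie far to the left in Resistant cells, and LAMB2, ITGB5 and ITGB8 to the right; both comparisons use the same Parental EV libraries.

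Resistant cells had less RNA of most of these subunits than Parental cells and more of a few, among them LAMB2, ITGB5 and, in EV cells, ITGB8. Of the 35 genes, 21 were lower and 7 higher in Resistant EV than in Parental EV, where 82.2% of all genes passed (43.7% lower and 38.5% higher). The median log2 change was -1.21 over the members and -0.10 over all genes. In bulk RNA, fewer cells of a kind and less RNA per cell cannot be told apart. These libraries share the Parental EV controls with the DTP comparison.

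The deepest fall among abundant subunits was that of ITGA6, with 585, 579.9 and 655 in Resistant EV and 6844, 6930.1 and 6702 in Parental EV (log2 change -3.49 ± 0.13, adjusted p = 2.02e-13). ITGAV had 2279, 2152 and 2447 in Resistant EV and 11666, 11326.5 and 10455 in Parental EV (-2.28 ± 0.10, adjusted p = 1.92e-12). ITGA2 had 1247, 1168 and 1206 in Resistant EV and 5684, 5275 and 5272 in Parental EV (-2.16 ± 0.05, adjusted p = 2.87e-16). No library of Resistant EV reached the Parental EV range in these genes. ITGA3 fell by 1.62, ITGB4 by 1.37, ITGB1 by 1.27, ITGB6 by 1.21 and ITGB2 by 0.82 on the log2 scale, so the genes of α3β1, α6β4 and αVβ6 were all lower. ITGA5 fell less, with 4076 to 4351 in Resistant EV and 6668 to 6835 in Parental EV (-0.67 ± 0.10, adjusted p = 8.38e-06). ITGA5 was, however, higher in Resistant EV than in DTP EV (0.79 ± 0.10, adjusted p = 1.15e-06, and 0.95 without DTP EV 1).

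Among the higher subunits, ITGB5, another αV partner, had 10770.2, 10553.5 and 9852 in Resistant EV and 2962, 2825 and 2578 in Parental EV (log2 change 1.90 ± 0.06, adjusted p = 3.56e-14). ITGB8 had 2364, 2408 and 2168 in Resistant EV and 761, 769.8 and 678 in Parental EV (1.65 ± 0.36, adjusted p = 0.000457). ITGB3 did not pass (-1.13, adjusted p = 0.0591). As a share of the length-scaled counts of the αV partners ITGB3, ITGB5, ITGB6 and ITGB8, ITGB5 made up 65.5 to 67.3% in Resistant EV against 20.4 to 22.1% in Parental EV. ITGB6 made up 25.9 to 28.2% in Resistant EV against 75.0 to 76.9% in Parental EV. The leading gene of this group thus differed between the states, while ITGAV itself was lower.

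Of laminin-332, LAMB3 fell by 1.52 and LAMA3 by 1.32 on the log2 scale in Resistant EV. The 3 chains of laminin-511 fell less, LAMB1 by 0.97, LAMC1 by 0.60 and LAMA5 by 0.49. LAMB2 went the other way, with 14095, 13012 and 13355 in Resistant EV and 2614, 2542 and 2380.1 in Parental EV (2.42 ± 0.05, adjusted p = 5.20e-17). Its share of the length-scaled β chain counts was 38.9 to 40.6% in Resistant EV and 4.47 to 4.81% in Parental EV, and the share of LAMB3 was 37.4 to 39.3% in Resistant EV and 67.7 to 68.6% in Parental EV.

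LAMA4, an α chain of vessel and fat basement membranes, had 349.6, 293 and 454 in Resistant EV and 4.05, 9.45 and 3.82 in Parental EV (adjusted p = 5.17e-07). The collagen receptor subunits ITGA10 and ITGA11, known from cartilage and fibroblasts, were also higher, ITGA10 with 64.4 to 97.7 in Resistant EV and 12 to 16.2 in Parental EV, and ITGA11 with 31.9 to 44.9 in Resistant EV and 0.0 to 3.04 in Parental EV. ITGA9 had 25.6 to 31.6 in Resistant EV and 0.0 to 3.82 in Parental EV. Of 8 fibroblast markers, 7 had counts in Resistant EV (THY1 at 0), with sums of 11675 to 12211, and 6 in Parental EV (PDGFRA and THY1 at 0), with sums of 533 to 570.2. PDGFRB alone averaged 11240.3 of the Resistant EV sum. Of 8 endothelial markers, 5 had counts in Resistant EV (KDR, CLDN5 and TIE1 at 0), with sums of 707 to 737, and 7 in Parental EV (TEK at 0), with sums of 173 to 202. The part of such cells in these results was not tested. All 8 epithelial markers had counts in both groups, with sums of 881654 to 910229 in Resistant EV and 278326 to 285057 in Parental EV. KRT8 led both sums, averaging 435407 in Resistant EV and 66012 in Parental EV. Of these 8 markers, 6 were called higher and 1 lower in Resistant EV, where 38.5% of all genes were higher and 43.7% lower. The other low-count falls were LAMC3 (0.0 to 12.2 in Resistant EV and 116 to 148 in Parental EV), ITGA1 (13.4 to 66.8 in Resistant EV and 502 to 528 in Parental EV), ITGA7 (4.86 to 14.7 in Resistant EV and 99.2 to 111 in Parental EV), ITGAX (0.0 to 12.2 in Resistant EV and 63.8 to 72.5 in Parental EV) and ITGA2B (0.0 to 4.69 in Resistant EV and 10.5 to 25.3 in Parental EV). LAMA1 was at 0 in all Resistant EV libraries and its call rests on 0.0 to 4.05 in Parental EV; it was lost in 5 of the 6 fits without a library of either group.

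Against DTP EV, 7 genes were higher and 20 lower in Resistant EV, where 80.6% of all genes passed (37.5% higher and 43.1% lower). The median log2 change was -0.77 over the members and -0.1 over all genes. Without DTP EV 1 the counts were 7 and 21 and the member median -0.78. In OC cells 7 were higher and 20 lower in Resistant OC than in Parental OC (81.9% of all genes passed, 38.4% higher and 43.5% lower). Against DTP OC 7 were higher and 21 lower (81.6%, 37.3% higher and 44.3% lower). Of the calls against Parental cells, 23 were shared in direction by the EV and OC arms, 82.1% of those in EV cells and 85.2% of those in OC cells. Over all tested genes these shares were 87.2% and 87.5%. ITGB8 was called in the EV arm and not in the OC arm, with 1242, 1079 and 291 in Resistant OC and 641.5, 650.0 and 515 in Parental OC (log2 change 0.29, adjusted p = 0.468). Resistant OC 3 lay below all Parental OC libraries and the other Resistant OC libraries above them, and without it the log2 change in the OC arm was 0.94 (adjusted p = 5.5e-05). The difference between the arms in ITGB8 was -1.37 ± 0.51 (adjusted p = 0.0525), and -0.70 (adjusted p = 0.0236) without Resistant OC 3. ITGA11, ITGB2 and LAMA1 were also called in the EV arm and not in the OC arm, and ITGAL, ITGB3 and LAMA2 the other way round. The ITGB3 call was lost in 3 of 6 fits without a library. It was also lost with quantile normalization (adjusted p = 0.0789) and in the fit of the compared groups alone (adjusted p = 0.0689). The ITGAL call was lost with a pseudocount of 0.1 (adjusted p = 0.0942) and without Parental OC 2 (adjusted p = 0.123). LAMA2, the α chain of muscle laminin, had 58.5 to 79.2 in Resistant OC and 101 to 123 in Parental OC (-0.67 ± 0.25, adjusted p = 0.0205), a call lost with quantile normalization (-0.25, adjusted p = 0.387) and without Parental OC 1 or Resistant OC 1. ITGAE, which pairs with ITGB7 in lymphocytes that bind epithelium, had 359 to 377 in Resistant OC and 462 to 501 in DTP OC (-0.39 ± 0.16, adjusted p = 0.0332), a call lost in 5 of 6 fits without a library and absent with quantile normalization (-0.03, adjusted p = 0.848). ITGB7 had 0.0 to 22.3 over the 18 libraries and was called in no comparison. ITGA5 was called in opposite directions. It had 10714, 10601 and 10947.5 in Resistant OC and 7372, 7477 and 7489 in Parental OC (log2 change 0.53 ± 0.10, adjusted p = 9.75e-05), though with quantile normalization it did not pass in OC cells (0.22, adjusted p = 0.0623).

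**Figure D3:**
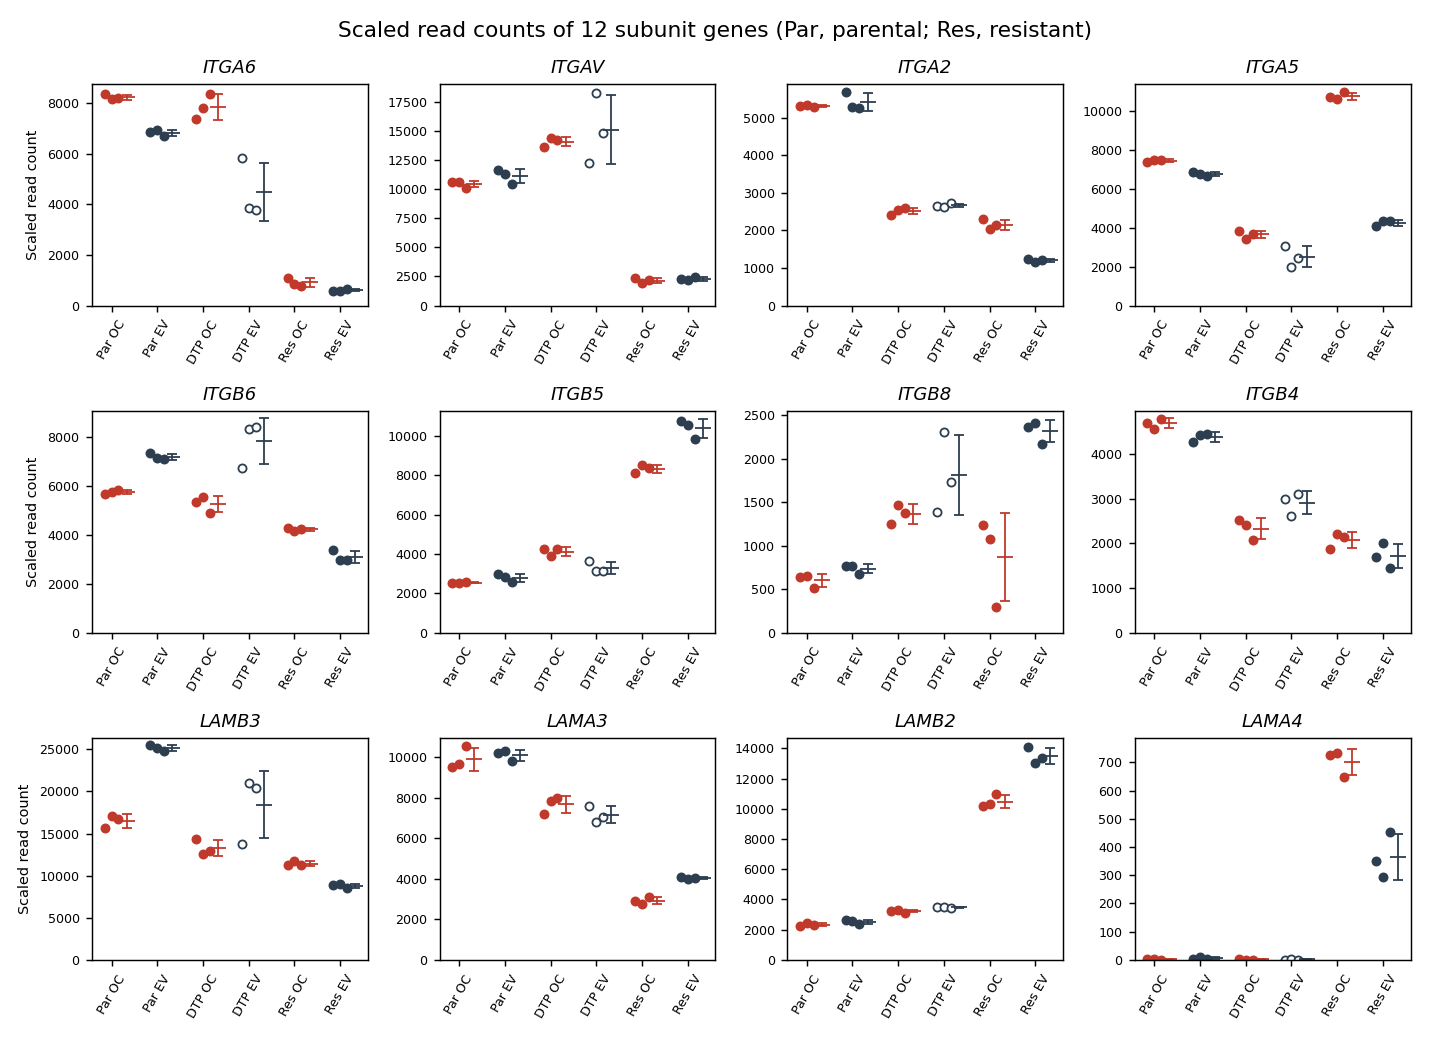
Scaled read counts of 12 members in every library by state (Parental, DTP, Resistant), with OC in red left of EV in dark blue and bars for mean ± SD of 3 libraries; open points are DTP EV, with replicate 1 first. ITGA6 and ITGAV are low in all 6 Resistant libraries, ITGA5 is highest in Resistant OC, and ITGB6 and LAMB3 lie lower in OC than in EV in Parental cells and higher in OC than in EV in Resistant cells.

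**Figure D4:**
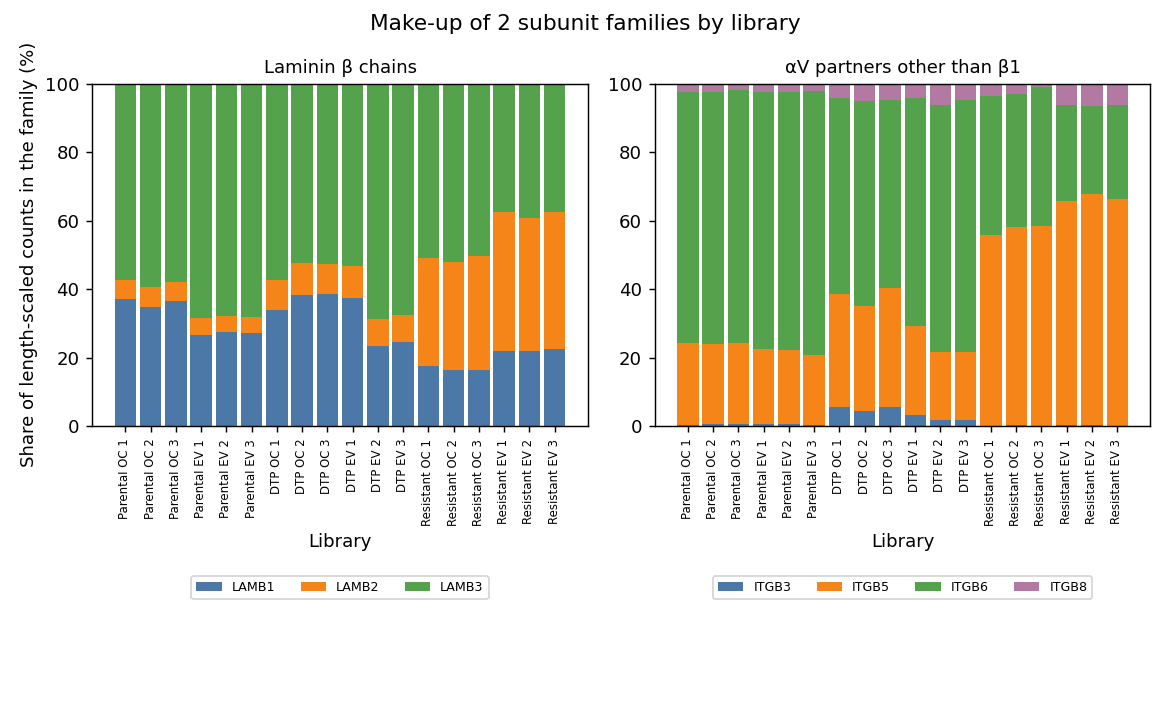
Share of the length-scaled counts (vertical axis, percent) of the laminin β chains and of the αV partners other than β1 in each library, ordered by state with OC left of EV. LAMB2 and ITGB5 take 31.3 to 40.6% and 55.8 to 67.3% in the Resistant libraries, more than in any Parental or DTP library.

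The effect of cATF6 overexpression on these genes differed by state. ATF6 counts were themselves higher in Resistant OC (31354 to 33190) than in Parental OC (17791 to 18380) or DTP OC (18751 to 22117). For Resistant cells, cell state and amount of overexpression therefore cannot be told apart. In Parental cells 2 genes were higher and 2 lower in OC than in EV, where 14% of all genes passed (5.99% higher and 8% lower). In DTP cells 4 were higher and 7 lower (18.2% of all genes, 9.49% higher and 8.76% lower), and without DTP EV 1 the counts were 9 and 7. In Resistant cells 9 were higher and 9 lower (36.7% of all genes, 16.3% higher and 20.4% lower). The first 2 counts depend on the spread used: fitted on the libraries compared alone, 15 members passed in Parental cells and 1 in DTP cells. That 1 was ITGA1. None of the DTP calls given below passed in that fit, where ITGA9 had too few counts to be tested. The difference in the OC effect itself was called for 3 members between DTP and Parental cells (1 higher and 2 lower, against 5.45% and 4.45% of all genes, 9.9% together), and without DTP EV 1 for 9, 5 higher and 4 lower, with ITGA3, ITGA5, ITGA6, ITGB6 and LAMB1 among those called in addition. Between Resistant and Parental cells it was called for 15, 7 higher and 8 lower (14.2% and 16.1% of all genes, 30.2% together), and between Resistant and DTP cells for 17, 8 higher and 9 lower (13.7% and 16.7%, 30.4% together).

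ITGB6 and LAMB3 were lower with cATF6 in Parental and DTP cells and higher with it in Resistant cells. ITGB6 had 5663, 5737.5 and 5829 in Parental OC and 7320.3, 7135 and 7066 in Parental EV (log2 change -0.32 ± 0.07, adjusted p = 0.00711). In DTP cells ITGB6 had 4872 to 5537 in OC and 6737 to 8400.5 in EV (-0.57 ± 0.07, and -0.68 without DTP EV 1), and in Resistant cells 4153 to 4276 in OC and 2948.5 to 3378 in EV (0.45 ± 0.07, adjusted p = 0.000172). The groups did not overlap in any state, and the effect in Resistant cells exceeded that in Parental cells by 0.77 ± 0.10 (adjusted p = 4.01e-05). LAMB3 had 15596, 17111 and 16743 in Parental OC and 25458, 25213 and 24768 in Parental EV (-0.61 ± 0.11, adjusted p = 0.00119). In DTP cells LAMB3 had 12565 to 14371 in OC and 13807 to 21003.5 in EV, where only DTP EV 1 lay within the OC range (-0.45, adjusted p = 0.00925, and -0.65 without it). That call was lost without DTP EV replicate 2 (-0.34, adjusted p = 0.0543) or 3 (-0.36, adjusted p = 0.0597). In Resistant cells LAMB3 had 11206 to 11771 in OC and 8512 to 8976 in EV (0.38 ± 0.11, adjusted p = 0.0118), and the effect exceeded that in Parental cells by 0.99 ± 0.15 (adjusted p = 0.000149).

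LAMA3 did not follow LAMB3. It fell in Resistant cells, with 2731 to 3081 in OC and 3986 to 4100.2 in EV (-0.48 ± 0.06, adjusted p = 7.92e-06). So did LAMB1 (-0.44), LAMC1 (-0.43) and LAMB2 (-0.36) with no overlap between groups, and LAMA5 did not pass there (-0.11, adjusted p = 0.102). In Parental cells LAMA5 rose, with 33466 to 35228 in OC and 28284 to 28735 in EV (0.27 ± 0.05, adjusted p = 0.00217), and in DTP cells it fell by 0.20, with and without DTP EV 1, a call lost without DTP OC 3 (adjusted p = 0.0819). LAMA4 had 647 to 733 in Resistant OC and 293 to 454 in Resistant EV, a log2 change of 0.96 that did not pass (adjusted p = 0.3). These groups did not overlap, and the spread used was shared with the Parental and DTP libraries, where LAMA4 had 0.0 to 9.45.

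ITGA5, ITGA6 and ITGA2 were higher with cATF6 in Resistant cells. ITGA5 had 10714, 10601 and 10947.5 in Resistant OC and 4076, 4346 and 4351 in Resistant EV (log2 change 1.34 ± 0.10, adjusted p = 4.30e-08). The gap between the groups was wide against their spread. In DTP cells ITGA5 had 3441 to 3828 in OC and 1999 to 3070.0 in EV (0.57 ± 0.10, and 0.73 without DTP EV 1). In Parental cells ITGA5 did not pass (0.14, adjusted p = 0.41), though 7372 to 7489 in OC did not overlap 6668 to 6835 in EV. Its share of the length-scaled α counts was 42.8 to 43.5% in Resistant OC, above that of ITGA3 (32.4 to 35.1%), and 24.3 to 25.7% in Resistant EV, below that of ITGA3 (45.4 to 48.3%). The order of the leading α subunits thus differed between the arms. ITGA2 had 2299, 2034 and 2132 in Resistant OC and 1247, 1168 and 1206 in Resistant EV (0.83 ± 0.05, adjusted p = 4.17e-09), and -0.08 was its change in DTP cells (adjusted p = 0.282). ITGA6 had 7382 to 8382 in DTP OC and 3774 to 5816 in DTP EV (0.84 ± 0.13, adjusted p = 0.000739, and 1.03 without DTP EV 1), and 777 to 1094 in Resistant OC and 579.9 to 655 in Resistant EV (0.58 ± 0.13, adjusted p = 0.00296). In Parental cells ITGA6 missed the threshold (0.27, adjusted p = 0.211), though 8173 to 8348 in OC did not overlap 6702 to 6930 in EV. The spread in these tests was shared by all 18 libraries.

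Of the other β subunits, ITGB8 had 1242, 1079 and 291 in Resistant OC and 2364, 2408 and 2168 in Resistant EV. Resistant OC 3 was far below the rest, and the log2 change was -1.66 ± 0.36 (adjusted p = 0.00172) with it and -0.99 (adjusted p = 0.000257) without it. ITGB5 fell by 0.32 in Resistant OC and rose by 0.33 in DTP OC (0.40 without DTP EV 1). ITGB1 fell by 0.23 in Resistant OC. ITGB4 was called lower in DTP OC (-0.32, adjusted p = 0.0375) and higher in Resistant OC (0.28, adjusted p = 0.0408), but the first call was lost without DTP EV replicate 1 (adjusted p = 0.0591) or 3, or DTP OC 2 or 3, and the second without Resistant EV 1 or 3 (0.17 without Resistant EV 3, adjusted p = 0.198) or Resistant OC 2 or 3. ITGB2 had 1407 to 1671 in Resistant OC and 934 to 1054 in Resistant EV (0.63 ± 0.07, adjusted p = 5.01e-06), and 1495 to 1593 in DTP OC and 1964 to 2192 in DTP EV (-0.42, and -0.39 without DTP EV 1). In Parental cells ITGB2 did not pass (-0.19, adjusted p = 0.0857), though 1408 to 1594 in OC did not overlap 1689 to 1732 in EV. The strand setting of the counting is not given, so reads of a gene and of an antisense partner cannot be told apart. ITGAL, an α partner of ITGB2 in leukocytes, had 17.0, 11.9 and 18 in Resistant OC and was at 0 in Resistant EV. Of 10 leukocyte markers, 7 had counts in Resistant OC (CD3E, CD3D and MS4A1 at 0), with sums of 55950.4 to 60516, and 8 in Resistant EV (CD3D and MS4A1 at 0), with sums of 44591 to 46501, led in both by CD68. Their part in the result was not tested.

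The remaining OC calls were of low or weakly changed genes. ITGA3 rose in DTP OC by 0.16 (adjusted p = 0.0438, and 0.20 without DTP EV 1), a call lost without DTP EV 2 (0.10, adjusted p = 0.207), DTP EV 3 or DTP OC 1 or 3. ITGA10 had 23.8 to 31.5 in Parental OC and 12 to 16.2 in Parental EV, a call lost without any 1 of 5 libraries. ITGA9 was at 0 in the 3 DTP OC libraries and had 6.26 to 10.1 in DTP EV, a call kept without DTP EV 1 (adjusted p = 0.00389). In Resistant cells ITGA1 had 64.5 to 86.1 in OC and 13.4 to 66.8 in EV, ITGA7 0.0 to 2.39 in OC and 4.86 to 14.7 in EV, and ITGAM 3.19 to 7.16 in OC and 14.7 to 30.4 in EV. Without Resistant EV 2 the log2 change of ITGA1 was 0.65, against 1.24 with it.

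**Figure D5:**
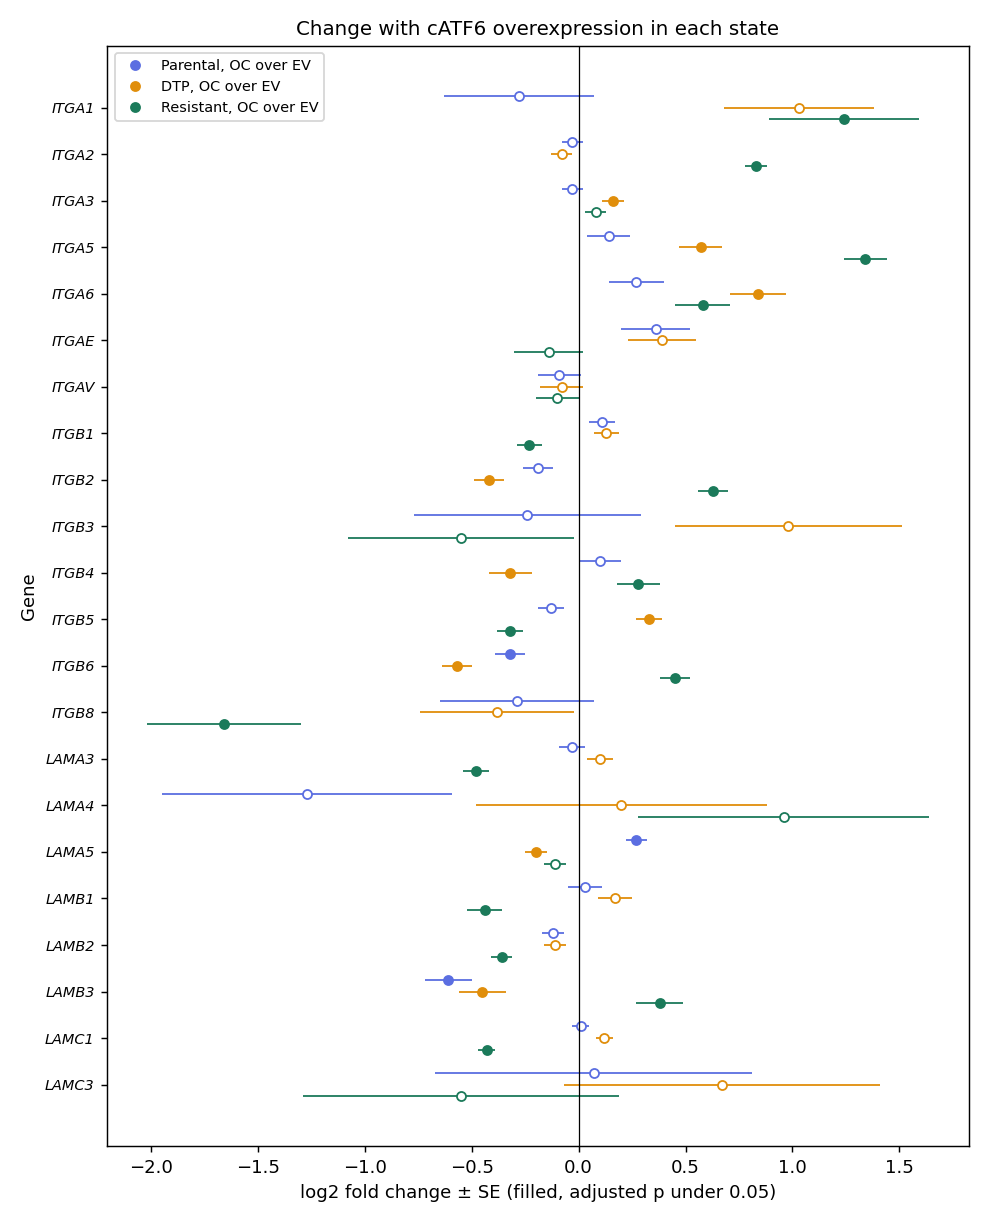
Log2 fold change of OC over EV with its SE (horizontal axis) in Parental, DTP and Resistant cells for 22 members with a mean of at least 100 scaled counts; filled points passed the adjusted p of 0.05. ITGB6, LAMB3 and ITGB2 lie on opposite sides of 0 in DTP and Resistant cells, and ITGA5 lies farthest right and ITGB8 farthest left in Resistant cells.

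Genes that work beside these subunits were counted by list, and the counts are to be read against the 56.9% of all tested genes that passed in DTP EV and the 82.2% in Resistant EV. The 4 hemidesmosome partners of α6β4 were all higher in DTP EV than in Parental EV (median log2 change 0.87), while ITGA6 and ITGB4 were lower. DST, a plakin of the inner hemidesmosome plaque, had a log2 change of 1.04 ± 0.07 (1.09 without DTP EV 1) and the tetraspanin CD151 of 0.74 ± 0.08 (0.65 without it). The transmembrane collagen COL17A1 rose by 0.99 ± 0.22, and by 1.42 ± 0.06 without DTP EV 1. The list was also higher in all 4 genes without that library. In Resistant EV CD151 was higher than in Parental EV (1.44 ± 0.08), and PLEC, the linker to keratin filaments (-1.45 ± 0.06), DST (-0.62 ± 0.07) and COL17A1 were lower. Of 13 tested basement membrane partners of laminin, 10 were higher and 2 lower in DTP EV (median 1.33) and likewise 10 and 2 in Resistant EV (median 1.44). They included the collagen COL18A1 (2.34 ± 0.07 in DTP EV, and 2.40 without DTP EV 1), NTN4, a netrin that binds laminin (1.55 ± 0.05 in DTP EV, 1.56 without DTP EV 1, and 1.48 ± 0.05 in Resistant EV), and 2 laminin receptors that are not integrins, BCAM (3.58 ± 0.07) and DAG1 (2.19 ± 0.06), in Resistant EV. Of the 12 laminin chains 2 were higher and 8 lower in the same comparison.

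Of 13 tested integrin activators and inhibitors, 7 were higher and 2 lower in DTP EV (median 0.24), and 4 higher and 6 lower in Resistant EV (median 0.03). In Resistant EV the activators talin (TLN1, -1.38 ± 0.05) and kindlin 1 (FERMT1, -1.89 ± 0.07) were lower, and so was filamin A (FLNA, -2.33 ± 0.08), which competes with talin for β tails. Kindlin 2 (FERMT2) went the other way, with 6234 to 6747 in Resistant EV and 2032 to 2042 in Parental EV. Of 21 tested integrin ligands other than laminin, 9 were higher and 7 lower in DTP EV (median 0.08), and 10 and 6 in Resistant EV (median 0.72). Medians over all genes were 0 and -0.10 in these comparisons, and without DTP EV 1 the DTP counts were the same for the basement membrane partners and the activators and 10 and 6 for the ligands. Tenascin C was among the lower ones, with 964.5 to 1015 in Resistant EV and 50665 to 52447 in Parental EV. LTBP1, which holds latent TGF-β that αV integrins bind, averaged 2175 ± 109 in Resistant EV and 80.6 ± 12 in Parental EV (SD, n = 3 each, log2 change 4.75 ± 0.13).

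The circular RNA table listed 6 circular RNAs of member genes, among them 2 of ITGB1 and others of LAMC1, ITGB6 and ITGA6. None had at least 2 back-splice reads in at least 3 of the 6 Osi and DMSO libraries, the highest value was 4, and none was tested.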

How the data were processed

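Gene values were deposited by the authors on a log10 scale. That the scale is log10(count + 1) was read from the values, since undoing it gave whole numbers in 100.0% of cells (tolerance 1e-06). Per the submitters' processing notes, FastQC, STAR, featureCounts and MultiQC were used with build hg19, with versions, annotation and strand setting not given in the sources used here. Circular RNA values were deposited by the authors as log10(reads + 1) of back-splice reads, most but not all whole, with column letter D taken to mean DMSO and O to mean Osi. Per the labels' protocols, ribosomal RNA was removed and libraries were directional.

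Of 22549 lines, 2557 of unnamed genes and 60 of 15 repeated symbols were left out (1.01 to 1.88% of a library's counts). Another 6 columns of per-sample values were not used, so Osi and DMSO were not compared by gene. Counts were scaled by trimmed means of M values (trims 0.3 and 0.05), and log2(scaled count + 1) of 15211 genes (those reaching 10 counts in 3 or more libraries) was fitted in 1 model of all 18 libraries with limma 3.58.1 (R 4.3.3, mean-variance trend, Benjamini-Hochberg adjustment over all tested genes, threshold 0.05, two-sided). Log2 changes are on that scale and understate changes of low genes. Because the deposited unit is log10, limma was used and no count model. Exon lengths came from a GRCh38 annotation while the files use hg19. The code was tested on simulated data.

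The members, lists, markers and motifs were chosen with earlier results of these data known. The values of 1 member are not reported here. Full statistics were to be given for called members of smallest p, up to 3 genes of smallest p per partner list, and EGFR and ATF6 always. Alternatives were other scaling, filter, pseudocount, variance model, libraries in the fit, a replicate block and each library left out. Replicate numbers did not pair libraries: same-numbered deviations correlated at -0.06 to 0.04 over 27 pairs.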

Additional observations from a re-analysis of the deposited data

Results flagged for a closer look

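The effect of cATF6 overexpression (OC minus EV, log2) differed between states for the genes below, by the test of the difference itself in the limma fit with adjustment over all genes. Between DTP and Parental cells it was higher in DTP cells for ITGB5 (difference 0.45) and lower for LAMA5 (-0.47) and the low-count ITGA9 (-3.18). Without DTP EV 1 the values were 0.52, -0.48 and -3.14. The ITGA9 call was lost in 7 of 12 fits without 1 library, with voom weights (adjusted p = 0.0573) and with a pseudocount of 0.1 (adjusted p = 0.0527).

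Between Resistant and Parental cells, the α subunits with a higher effect in Resistant cells were ITGA5 (1.20), ITGA2 (0.86), ITGA1 (1.52) and ITGAL (4.37), and those with a lower effect ITGA10 (-1.59) and ITGA7 (-2.93). Among β subunits ITGB2 (0.82) and ITGB6 (0.77) had a higher and ITGB1 (-0.34) a lower effect. Of the laminin chains only LAMB3 had a higher effect (0.99), and LAMA3 (-0.45), LAMA5 (-0.39), LAMB1 (-0.48), LAMB2 (-0.25) and LAMC1 (-0.44) had a lower one.

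Between Resistant and DTP cells, higher effects in Resistant cells were found for ITGA2 (0.92), ITGA5 (0.77), ITGA9 (2.58), ITGAL (4.29), ITGB2 (1.05), ITGB4 (0.60), ITGB6 (1.02) and LAMB3 (0.83). Lower effects were found for ITGA10 (-1.21), ITGA7 (-3.38), ITGAM (-1.90), ITGB1 (-0.36), ITGB5 (-0.64), LAMA3 (-0.58), LAMB1 (-0.62), LAMB2 (-0.26) and LAMC1 (-0.55). ITGA1, ITGA7, ITGA9, ITGA10, ITGAL and ITGAM were below 100 scaled counts in the Resistant libraries. In the difference between Resistant and DTP cells, the ITGA9 call was lost in 10 of 12 fits without 1 library, among them that without DTP EV 1 (2.54, adjusted p = 0.0573), and with quantile normalization (adjusted p = 0.0542). No other of these calls was lost without DTP EV 1, where LAMB3 had 1.03 and ITGA5 0.62. The ITGA10 call was lost in 6 of 12 such fits, with voom weights (adjusted p = 0.0564), with quantile normalization (adjusted p = 0.0848) and in the fit of the compared groups alone (adjusted p = 0.0706), and the ITGAM call with quantile normalization (adjusted p = 0.0779). Between Resistant and Parental cells, the ITGA1 call was lost in 8 of 12 fits without 1 library and in the fit of the compared groups alone (adjusted p = 0.0578), and the ITGB1 call with quantile normalization (-0.19, adjusted p = 0.0853). Without Resistant EV 2 the ITGA1 difference between Resistant and Parental cells was 0.93.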

How the results depend on the processing

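No called member changed direction under any alternative. Counts of called members moved by more than 1.5 times in few cases. Fitted on the compared groups alone, OC against EV gave 15 calls in Parental cells (4 with all libraries) and 1 in DTP cells (11, of which none passed and ITGA9 was not tested). The difference of the OC effect between DTP and Parental cells gave 6 (3) in that fit, as it did with voom weights (6). When 1 library was left out, calls ranged from 7 to 16 for OC against EV in DTP cells (16 without DTP EV 1, 7 without DTP EV 3 or DTP OC 3) and from 2 to 9 for that difference (9 without DTP EV 1). The other ranges were 19 to 22 for DTP EV, 27 to 29 for Resistant EV, 12 to 14 for DTP OC and 25 to 28 for Resistant OC against Parental cells, 26 to 28 for Resistant EV and 25 to 27 for Resistant OC against DTP cells, 3 to 5 and 17 to 20 for OC against EV in Parental and Resistant cells, and 14 to 16 and 15 to 19 for the differences between Resistant and Parental and Resistant and DTP cells. ITGB8 in Resistant OC against Parental OC (0.29, not called) ranged from -0.10 without Resistant OC 1 to 0.94 without Resistant OC 3. Libraries of different groups share only a replicate number (0 of 27 pairs correlated above 0.1, and 8 correlated best with their own number). With the number as a block, 22 members were called in DTP EV and 29 in Resistant EV against Parental EV, and 3, 10 and 17 for OC against EV in Parental, DTP and Resistant cells. Quantile normalization moved the median of all genes by over 0.1 only between Resistant OC and DTP OC (-0.13 to -0.01). Member circular RNAs had too few reads for a value under any setting. Low counts limit precision: ITGB7, at no more than 22.3 scaled counts, had an SE of 0.76 on the log2 scale in each comparison of 2 groups.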

Other observations

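The tetraspanins, membrane proteins that gather integrins into clusters, and the focal adhesion core, which ties integrins to actin, were also counted, beside 56.9% of all tested genes that passed in DTP EV and 82.2% in Resistant EV. Of 9 tetraspanins 5 were higher and 3 lower in DTP EV than in Parental EV (median log2 change 0.27), 5 and 4 without DTP EV 1, and 5 and 3 in Resistant EV (median 0.60). CD82 was lower in DTP EV (-1.49 ± 0.17, and -1.78 without DTP EV 1) and higher in Resistant EV (2.44 ± 0.17), with 4138 ± 242 scaled counts in Resistant EV and 760.3 ± 55.8 in Parental EV (SD, n = 3 each). CD9 was higher in both, by 0.80 ± 0.11 in DTP EV (1.00 without DTP EV 1) and by 0.60 ± 0.11 in Resistant EV.

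Of 27 tested focal adhesion genes 11 were higher and 6 lower in DTP EV (median 0.03), also without DTP EV 1 (median 0.06), and 12 higher and 10 lower in Resistant EV (median 0.51). The scaffold NEDD9 was higher in both, by 3.71 ± 0.20 in DTP EV (4.09 without DTP EV 1) and by 4.61 ± 0.20 in Resistant EV. The actin crosslinker ACTN1 rose by 0.96 ± 0.07 in DTP EV (0.99 without DTP EV 1) and by 1.82 ± 0.07 in Resistant EV, while the kinase SRC was lower in Resistant EV (-1.40 ± 0.06). Both comparisons use the same Parental EV libraries.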
